A study of Homo sapiens with 8 samples.

Results

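The gene set described here holds 38 genes of the G2/M transition and of mitosis, given as a list of gene names, out of 19942 protein-coding genes in the expression tables. All 38 were found, and each passed the filter on low values in every comparison. RNA-seq of polyA RNA was available for HCT116 cells, a human colorectal cancer line, and for UF1hypo cells, 1 clone of HCT116 in which exon 4 was removed from 1 UHRF1 allele, so that effects of the genotype and of the single clone cannot be told apart. Lentivirus brought either a control hairpin, shScr, or one that targets UHRF1, shUHRF1, into each line as stable, puromycin-selected pools, and each of the 4 groups had 2 libraries. The sources used here name a pair of possible harvest times after infection without saying which applies to these libraries. They also do not say whether the libraries of a group came from separate cultures, so that p-values measure only the spread between these libraries, which may be technical.

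UHRF1 recruits the maintenance DNA methyltransferase to newly replicated DNA, and the study asked how far its level could fall before methylation and gene silencing were lost. The mRNAs of mitotic genes are periodic: they are low in G1, rise through S phase and peak in G2 and mitosis, when cyclin B with CDK1 drives entry into mitosis and the anaphase-promoting complex ends it. In dividing tumour lines such as HCT116 they are therefore read as a measure of proliferation, and MKI67 is the standard histological marker of it. In G2/M promoters the MuvB complex binds a short element called the CHR, together with B-MYB and FOXM1 in cycling cells and with p130 or p107 in the repressive DREAM complex, while NF-Y binds CCAAT boxes near it.

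The promoters of 5 members are shown because these members lay at the ends of the range on UHRF1 knockdown in UF1hypo cells: CCNB2, MAD2L1 and PTTG1 had the 3 most negative log2 fold changes, and AURKB and INCENP the 2 values above 0. Each run is the 150 bases upstream of the first start listed for the gene by RefSeq, read 5′ to 3′ on the gene's strand from GRCh38.p14. They lie at chr15:59104996-59105145 (plus strand), chr4:120066849-120066998 (minus), chr5:160421705-160421854 (plus), chr17:8210226-8210375 (minus) and chr11:62123861-62124010 (plus), in the same order. Capitals mark the CHR sequence TTTGAA, its variant TTTAAA and the CCAAT box, each on either strand (read in reverse, TTCAAA is the first of these and ATTGG the last, and the second reads the same).
CCNB2: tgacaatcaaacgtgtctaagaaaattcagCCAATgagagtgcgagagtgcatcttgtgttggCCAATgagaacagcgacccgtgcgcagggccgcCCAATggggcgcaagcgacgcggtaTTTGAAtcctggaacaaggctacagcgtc
MAD2L1: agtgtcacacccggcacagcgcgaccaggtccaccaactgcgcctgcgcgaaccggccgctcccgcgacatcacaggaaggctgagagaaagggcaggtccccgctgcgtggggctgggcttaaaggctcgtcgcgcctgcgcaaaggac
PTTG1: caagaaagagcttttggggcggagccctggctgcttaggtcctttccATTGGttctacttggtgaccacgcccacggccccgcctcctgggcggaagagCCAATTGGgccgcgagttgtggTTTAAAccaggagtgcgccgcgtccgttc
AURKB: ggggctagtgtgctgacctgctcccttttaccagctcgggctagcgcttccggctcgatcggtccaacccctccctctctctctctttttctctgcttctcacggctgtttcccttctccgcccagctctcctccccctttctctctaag
INCENP: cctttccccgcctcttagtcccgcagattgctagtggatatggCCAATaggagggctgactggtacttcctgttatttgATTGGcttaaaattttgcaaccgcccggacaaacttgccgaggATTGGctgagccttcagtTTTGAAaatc

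In CCNB2 the TTTGAA began 29 bases upstream of the start, behind 3 CCAAT boxes in the run shown. PTTG1 carried a TTTAAA at the same distance of 29 bases, and its letters CCAATTGG hold a CCAAT box on each strand in overlap. INCENP held 3 CCAAT boxes and a TTTGAA that began 10 bases upstream. No whole motif fell in the runs of MAD2L1 and AURKB, but in the wider window MAD2L1 had a TTTGAA from base 25 of the transcript and an ATTGG 229 bases upstream, and AURKB an ATTGG 153 bases upstream. Over windows from 250 bases before to 50 after each start, RefSeq gave a promoter for 32 of the 38 members, not for AURKA, BIRC5, BUB3, TTK, TPX2 and UBE2C. A TTTGAA lay in at least 1 window of 23 of these 32 members (71.9%), against 18.2% of 27305 genes with a window. TTTAAA was found in 13 members (40.6% against 14.5%), either form in 29 (90.6% against 27.9%), and a CCAAT box in 26 (81.2% against 39.7%). The 27305 genes were not limited to protein-coding or expressed genes, whereas the members are both. Genes with several starts had several chances of a match, and a match says only that the letters are there.

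Depth, recovered as aligned bases, was 5.42 to 7.83 gigabases per library, and the 10 most abundant genes took 7.89% to 14.1% of TPM, a transcript level corrected for length and scaled to the same total in each library. How many reads stand behind a single gene is unknown. Of 11 colon epithelial markers, 7 were above a TPM of 1 in every group, among them EPCAM, KRT8, KRT18 and KRT19, whereas VIL1, CDX1, LGALS4 and GPA33 were under it, CDX1 being listed at 0 in 6 libraries. Their summed TPM was 4356 to 4410 in HCT116 under shScr and 5487 to 5606 under shUHRF1, then 8822 to 9095 in UF1hypo under shScr and 9968 to 12781 under shUHRF1. For 7 leukocyte markers the sums were 14.2 to 15.2, 7.55 to 8.25, 41.1 to 43.5 and 79.6 to 109.9 in the same order, nearly all of it CD68, which is a lysosomal protein of many cell types, while PTPRC reached at most 0.0728. The 7 fibroblast markers summed to 21.2 to 24.0, 22.5 to 26.7, 23.0 to 29.0 and 40.6 to 67.2, nearly all COL1A1, with LUM listed at 0 throughout, and the 4 endothelial markers reached at most 0.626. These sums moved with the groups, and their part in the mitotic values was not tested.

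The replicates of UF1hypo shUHRF1 stood apart from those of the other groups. Across all 19942 protein-coding genes, unexpressed ones included, Pearson's r of log2(TPM + 1) between replicates was 0.979 there and 0.995 to 0.996 elsewhere. It is a value over genes, which are not independent. GC values over all genes, here and below, cover the 12691 with a mean TPM above 1. The difference between the UF1hypo shUHRF1 replicates followed the GC content of the transcript, with a Spearman's rho of 0.841 over all genes and 0.849 over the 38 members. In UF1hypo shScr the same rho was −0.54 over all genes and −0.77 over the members, and in both HCT116 groups it lay between −0.06 and −0.04 over all genes, and at −0.31 (shScr) and −0.23 (shUHRF1) over the members. The members were poor in GC, with a median of 42.1% against 49.8% over all genes, and 30 of the 38 lay below the latter value. Replicate 1 of UF1hypo shUHRF1 was the lower of the pair in 31 of 38 members, by a median of 0.65 on the log2 scale, so that results on this group are given below with each of its libraries left out and after GC content and transcript length were corrected for.

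UHRF1 itself checked the labels. In HCT116 its TPM was 87.5 and 98.4 under shScr, against 31.7 and 32.7 under shUHRF1. In UF1hypo the shScr libraries had 47.3 and 50.6, against 34.1 and 21.1 under shUHRF1. The shUHRF1 libraries thus lay below the shScr libraries in either line, with log2 fold changes of −1.50 in HCT116 (limma, adjusted p = 0.0564) and −0.84 in UF1hypo (adjusted p = 0.0406, below 0.05 in 10 of 17 alternatives). A log2 fold change is the difference of group means of log2(TPM + 1), and adjusted p-values are Benjamini-Hochberg values over all genes tested in the comparison.

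In parental HCT116 cells with shScr the 38 genes were all expressed, from a mean TPM of 18.4 for CENPE, a kinetochore motor, to 557 for CDC20, which activates the anaphase-promoting complex. Their summed TPM was 5339 ± 44.4 (SD, n = 2, the number in each group). It came to 5522 ± 239 in the HCT116 knockdown. The UF1hypo sums were 4207 ± 151 before and 3510 ± 402 after knockdown. Relative to HCT116 shScr the UF1hypo groups thus held 78.8% and 65.7% of this RNA, and UF1hypo shUHRF1 held 83.4% of UF1hypo shScr. In bulk RNA, fewer cells in G2 and mitosis and less of these mRNAs per cell cannot be told apart.

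**Figure D1:**
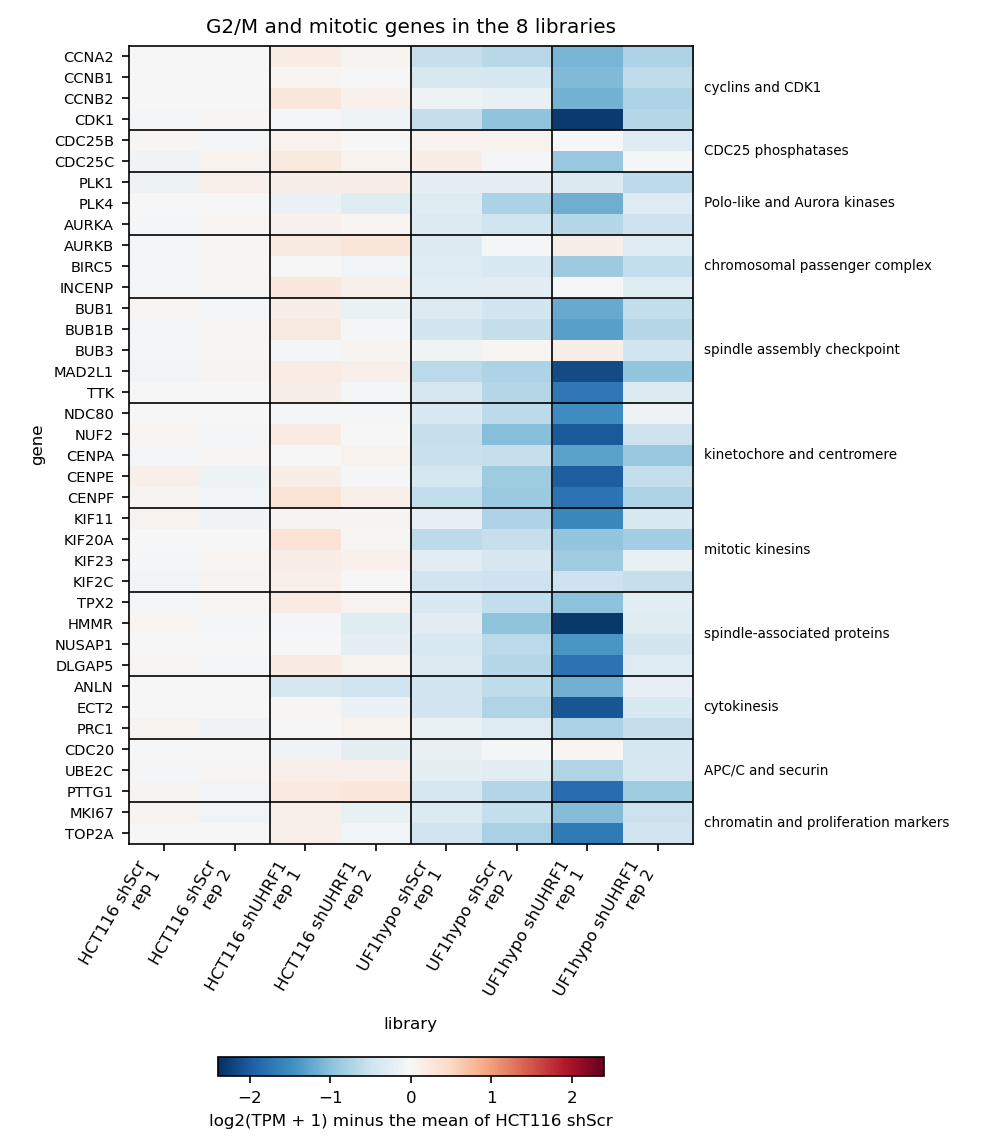
Heat map of log2(TPM + 1) minus the mean of HCT116 shScr (colour scale, log2 units) for the 38 genes (rows, grouped by role) in the 8 libraries (columns). HCT116 shUHRF1 stays near the parental level, UF1hypo shScr is paler blue in 36 genes by its group mean, and the deepest blue falls in replicate 1 of UF1hypo shUHRF1, where the median difference is −1.14.

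The first comparison asked how the clone differed from its parent under the control hairpin. Of the 38 genes, 36 had a negative log2 fold change in UF1hypo shScr against HCT116 shScr, with a median of −0.49 against −0.05 over 12856 genes tested. Both UF1hypo libraries lay below both HCT116 libraries in 34 members and above them in 1, CDC25B, against 37.2% and 29.1% of all genes. No member had an adjusted p below 0.05 in limma (smallest 0.0784, for KIF20A), whereas 4.78% of all genes did and 3.54% also passed an absolute log2 fold change of 1. At an unadjusted p below 0.05, 9 members were lower and 0 higher, against 7.18% and 11% of all genes. The spread is shared by all groups in every main fit, including UF1hypo shUHRF1, so that each SE given rests on all 8 libraries. With the 4 shScr libraries alone, 25 members passed, all lower, against 23.9% of all genes. With libraries weighted by their spread, 27 passed against 28.2%. Here and below, shares of all genes at an adjusted p below 0.05 count both directions unless a direction is given for them.

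Among the proliferation markers, MKI67 had a TPM of 163.9 and 149.9 in HCT116 shScr and 125.1 and 105.6 in UF1hypo shScr. TOP2A, the topoisomerase that untangles chromosomes in mitosis, had 101.7 and 99.5 in the parent and 71.7 and 58.5 in the clone. Neither pair overlapped, and the log2 fold changes were −0.44 (SE 0.207) for MKI67 and −0.63 (SE 0.332) for TOP2A, with adjusted p-values in limma of 0.302 and 0.365.

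The cyclins and CDK1 had a median log2 fold change of −0.50 in the clone. CCNB1, the mitotic cyclin B1, had a TPM of 325.3 and 324.2 in HCT116 shScr and 248.0 and 243.4 in UF1hypo shScr, and its log2 fold change was −0.40 (SE 0.167). CDK1, its kinase partner, had 168.4 and 175.9 against 115.9 and 87.9, a log2 fold change of −0.76 (SE 0.418). Both clone libraries were lower for each gene, but for CDK1 the 2 clone libraries themselves differed by more than the parental ones. CCNA2, the cyclin of S phase and G2, stood at 65.7% of the parental mean TPM and CCNB2 at 90.2%, the latter only a little below it in both libraries.

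The CDC25 phosphatases, which remove the inhibitory phosphates of CDK1, were the exceptions. CDC25B had a TPM of 246.4 and 235.0 in HCT116 shScr and 255.6 and 256.3 in UF1hypo shScr. CDC25C had 21.7 and 24.8 against 25.9 and 22.6. CDC25B was thus higher in both clone libraries by a log2 value of 0.09 (SE 0.148) and CDC25C overlapped between the lines at 0.06 (SE 0.270), values smaller than their errors, and CDC25B turned to −0.07 once GC content was corrected for.

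Among the mitotic kinases, PLK1 had a TPM of 203.5 and 242.8 in HCT116 shScr and 188.0 and 188.1 in UF1hypo shScr, a log2 fold change of −0.24 (SE 0.156). AURKA, which matures the centrosomes, had 124.7 and 133.0 against 102.6 and 92.6, a log2 fold change of −0.40 (SE 0.147). PLK4, which starts centriole duplication, stood at 69.3% of the parental mean. All 3 kinases lay lower in both clone libraries. In the chromosomal passenger complex, which corrects faulty kinetochore attachments, BIRC5 (survivin) had 188.0 and 202.3 in HCT116 shScr and 157.1 and 150.6 in UF1hypo shScr, a log2 fold change of −0.34 (SE 0.148). INCENP, the scaffold of the complex, stood at 83.0% of the parent, and AURKB, its kinase, at 88.2% with libraries that overlapped.

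The spindle assembly checkpoint holds anaphase until every kinetochore is attached. BUB1, one of its kinases, had a TPM of 109.5 and 106.4 in HCT116 shScr and 85.5 and 78.6 in UF1hypo shScr, a log2 fold change of −0.39 (SE 0.217). BUB1B, MAD2L1 and TTK stood at 69.5%, 61.4% and 68.4% of the parental mean, while BUB3, which also acts outside mitosis, stood at 98.6% with overlapping libraries. The kinetochore and centromere genes had the most negative median of any role, −0.63, and no overlap in any of the 5. NUF2, a subunit of the NDC80 complex that holds microtubules, had 64.1 and 60.3 against 42.2 and 29.99, a log2 fold change of −0.79 (SE 0.411). CENPF, a large kinetochore protein, had 82.2 and 75.1 against 51.6 and 42.1, a log2 fold change of −0.74 (SE 0.299). Both were lower in each clone library, and NDC80, the centromeric histone variant CENPA and the motor CENPE stood at 70.4%, 67.9% and 63.1%.

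The mitotic kinesins KIF11, KIF20A, KIF23 and KIF2C stood at 66.4% (KIF20A) to 79.6% (KIF23) of the parent, and the spindle proteins TPX2, HMMR, NUSAP1 and DLGAP5 at 66.6% (HMMR) to 72.0% (TPX2). In cytokinesis, ANLN and ECT2 stood at 69.0% and 66.9% and PRC1, which bundles the central spindle, at 84.4%. Of the genes that end mitosis, the securin PTTG1 stood at 68.3%, the ubiquitin-conjugating enzyme UBE2C at 84.8% and CDC20 at 93.5%. None of these 14 genes overlapped between the lines. Reads of PTTG1 could be shared with its near copy PTTG2, which had a TPM of at most 0.697, and those of BUB1B with the readthrough gene BUB1B-PAK6, at most 0.485. Once GC content and length were corrected for, the median over the 38 genes was −0.28, 36 were still negative, and 8 passed an adjusted p of 0.05, all lower, against 16.1% of all genes. These were BUB1B, CCNA2, CENPA, CENPF, INCENP, KIF20A, KIF2C and PLK1.

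**Figure D2:**
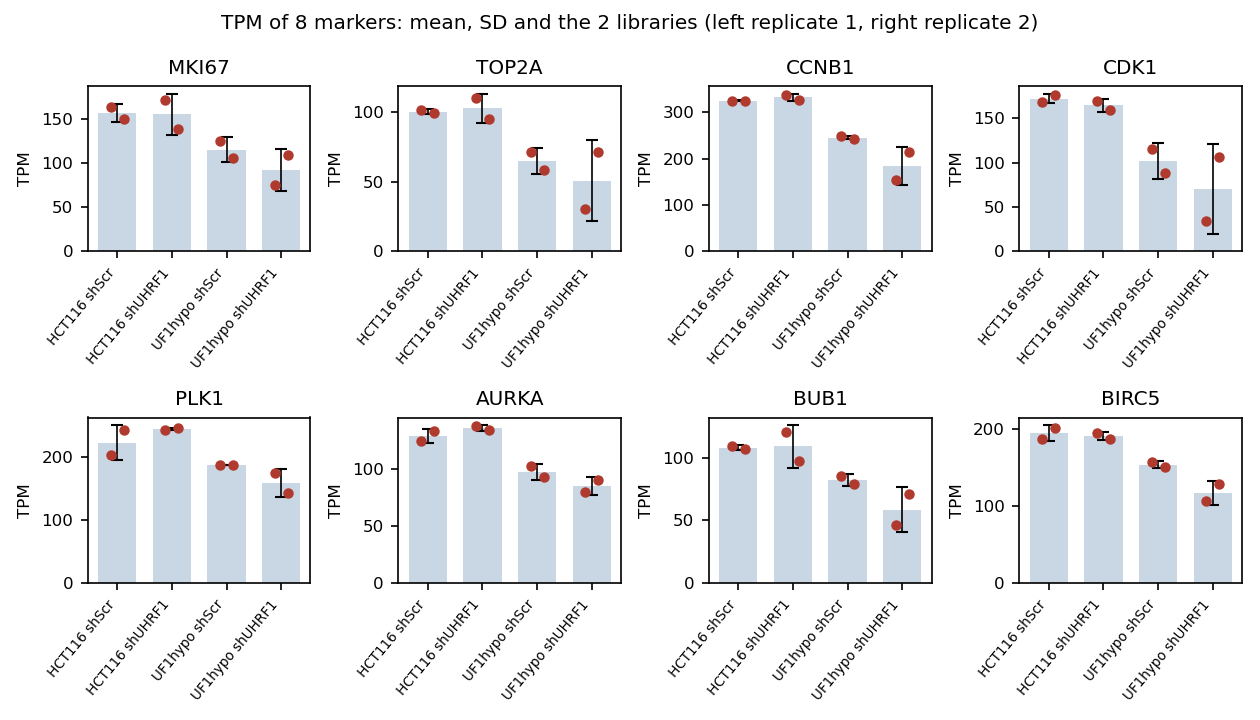
TPM (y axis) of 8 markers in the 4 groups (x axis): bars give the mean, error bars the SD and points the 2 libraries. In all 8 panels both HCT116 groups lie above both UF1hypo groups by their means, and the widest error bar relative to its mean is that of CDK1 in UF1hypo shUHRF1, at 34.3 and 106.5.

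The second comparison asked what the UHRF1 hairpin did in HCT116 cells. The 38 genes showed no common decrease: 28 had a positive and 10 a negative log2 fold change, with a median of 0.06 against −0.03 over 12704 genes tested. No member had an adjusted p below 0.05 in limma (smallest 0.923) or an unadjusted p below 0.05, the latter against 3.81% of all genes lower and 2.57% higher. Of all genes 0.0708% had an adjusted p below 0.05, and the same 0.0708% with the fold threshold added. The groups did not overlap in 15 members with higher and 5 with lower values, against 20.1% and 29.3% of all genes. The marker values lay close together. MKI67 had a TPM of 171.6 and 138.9 with shUHRF1, TOP2A 110.3 and 95.5, CCNB1 337.6 and 326.9 and CDK1 169.7 and 159.6. PLK1 had 244.4 and 246.9, AURKA 137.6 and 133.9, BUB1 120.7 and 96.9 and BIRC5 195.0 and 187.3. Their log2 fold changes ran from −0.06 for CDK1 to 0.14 for PLK1. By role the medians lay between −0.06 for the cytokinesis genes and 0.19 for the chromosomal passenger genes.

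At the upper end, PTTG1 went from a TPM of 243.8 and 221.9 to 274.0 and 278.2, a log2 fold change of 0.25 (SE 0.274). AURKB went from 187.0 and 201.1 to 224.0 and 236.4, also 0.25 (SE 0.184), and CENPF from 82.2 and 75.1 to 98.9 and 85.7, 0.23 (SE 0.299). In all 3 the libraries did not overlap, yet each difference was under 1.5 times its SE. That SE includes the spread of the UF1hypo libraries. At the lower end, ANLN, the scaffold of the cleavage furrow, went from 104.4 and 106.9 to 79.8 and 75.5, a log2 fold change of −0.44 (SE 0.270, limma, adjusted p = 0.923). PLK4 had 32.5 and 31.6 against 29.1 and 26.2, −0.21 (SE 0.285), and HMMR 62.9 and 59.3 against 59.1 and 49.8, −0.17 (SE 0.534). ANLN was the member that passed with the 4 HCT116 libraries alone, where its adjusted p was 0.0267, against 4.05% of all genes passing in that fit, and it passed in that 1 of 17 alternatives.

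The third comparison asked the same of UF1hypo cells, which start from less UHRF1. Here 36 of the 38 genes had a negative log2 fold change, with a median of −0.42 against 0.04 over 13620 genes tested. CCNB2 fell, by 0.79 on the log2 scale (SE 0.168, limma, adjusted p = 0.0178), and was the only member with an adjusted p below 0.05. Over all genes 13.3% passed that threshold and 2.86% passed it with lower values, so that 1 member of 38 is close to the background. No member also passed an absolute log2 fold change of 1, against 8.53% of all genes. At an unadjusted p below 0.05, 8 members were lower (BIRC5, BUB1, CCNB1, CCNB2, CENPA, MAD2L1, PRC1 and PTTG1) and 0 higher, against 8.45% and 19% of all genes. Both shUHRF1 libraries lay below both shScr libraries in 16 members and above them in 0, against 18.3% and 30.6% of all genes.

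CCNB2 (chromosome 15, 59105126 to 59125045, plus strand, GRCh38), the second B-type cyclin, had a TPM of 110.4 and 105.2 in UF1hypo shScr. With shUHRF1 it was 53.9 and 71.4. In HCT116 it was 118.6 and 120.5 with shScr and 144.9 and 128.5 with shUHRF1. The UF1hypo shUHRF1 libraries were the lowest of the 8 and the HCT116 shUHRF1 libraries the highest. Its adjusted p stayed below 0.05 in 13 of 17 alternatives and ran from 6.61e-04 to 0.146. It was 0.0141 without replicate 1 of UF1hypo shUHRF1 and 0.00144 without replicate 2, but 0.141 with the 4 UF1hypo libraries alone, and 0.146 and 0.0998 without replicate 1 or 2 of UF1hypo shScr.

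The other members at the negative end were spread more widely between the libraries. MAD2L1, which carries the wait signal of the checkpoint, went from a TPM of 36.1 and 33.7 to 12.1 and 28.9, a log2 fold change of −0.86 (SE 0.329, limma, adjusted p = 0.130). PTTG1 had 174.8 and 143.0 against 64.9 and 127.6, a log2 fold change of −0.79 (SE 0.277, limma, adjusted p = 0.102). Neither gene overlapped between the groups, but in both the shUHRF1 libraries lay farther from each other than the second of them from the lower shScr library. At the other end, INCENP went from 74.36 and 75.05 to 91.1 and 73.3, a log2 fold change of 0.13 (SE 0.156). AURKB had 153.6 and 188.6 against 214.3 and 156.5, a log2 fold change of 0.11 (SE 0.182). Both overlapped, and INCENP turned to −0.08 after the GC correction and to −0.03 without replicate 1 of UF1hypo shUHRF1, where AURKB was −0.12.

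Of the markers in UF1hypo shUHRF1, MKI67 had a TPM of 75.4 and 108.9 and TOP2A 30.3 and 71.5, so that the second library of each reached into the range of shScr. CCNB1 had 154.8 and 213.5, below both shScr libraries, and a log2 fold change of −0.43 (SE 0.165, limma, adjusted p = 0.130). CDK1 had 34.3 and 106.5, of which the second lay within the shScr range. The log2 fold change of CDK1 was −0.73, with an SE of 0.425 from the spread shared by all groups. PLK1 had 174.7 and 143.6, AURKA 79.5 and 90.5, BUB1 45.9 and 71.0 and BIRC5 106.6 and 128.5. These 4 did not overlap with shScr, and their log2 fold changes ran from −0.20 for AURKA to −0.51 for BUB1.

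By role, the cyclins and CDK1 had the most negative median, −0.58, with all 4 below 0. The kinetochore and centromere genes followed at −0.52 with 5 of 5, the spindle-associated proteins at −0.48 with 4 of 4, the checkpoint genes at −0.48 with 5 of 5 and the cytokinesis genes at −0.43 with 3 of 3. The proliferation markers had −0.40, the CDC25 phosphatases −0.39 and the group of CDC20, UBE2C and PTTG1 −0.33, all below 0. For the kinesins it was −0.24 and for PLK1, PLK4 and AURKA −0.22. The chromosomal passenger genes stood at 0.11, since only BIRC5 was negative there, at −0.39. CDC25C (−0.54), BUB3 (−0.14), KIF2C (−0.03) and CDC20 (−0.09) show the range within roles.

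**Figure D3:**
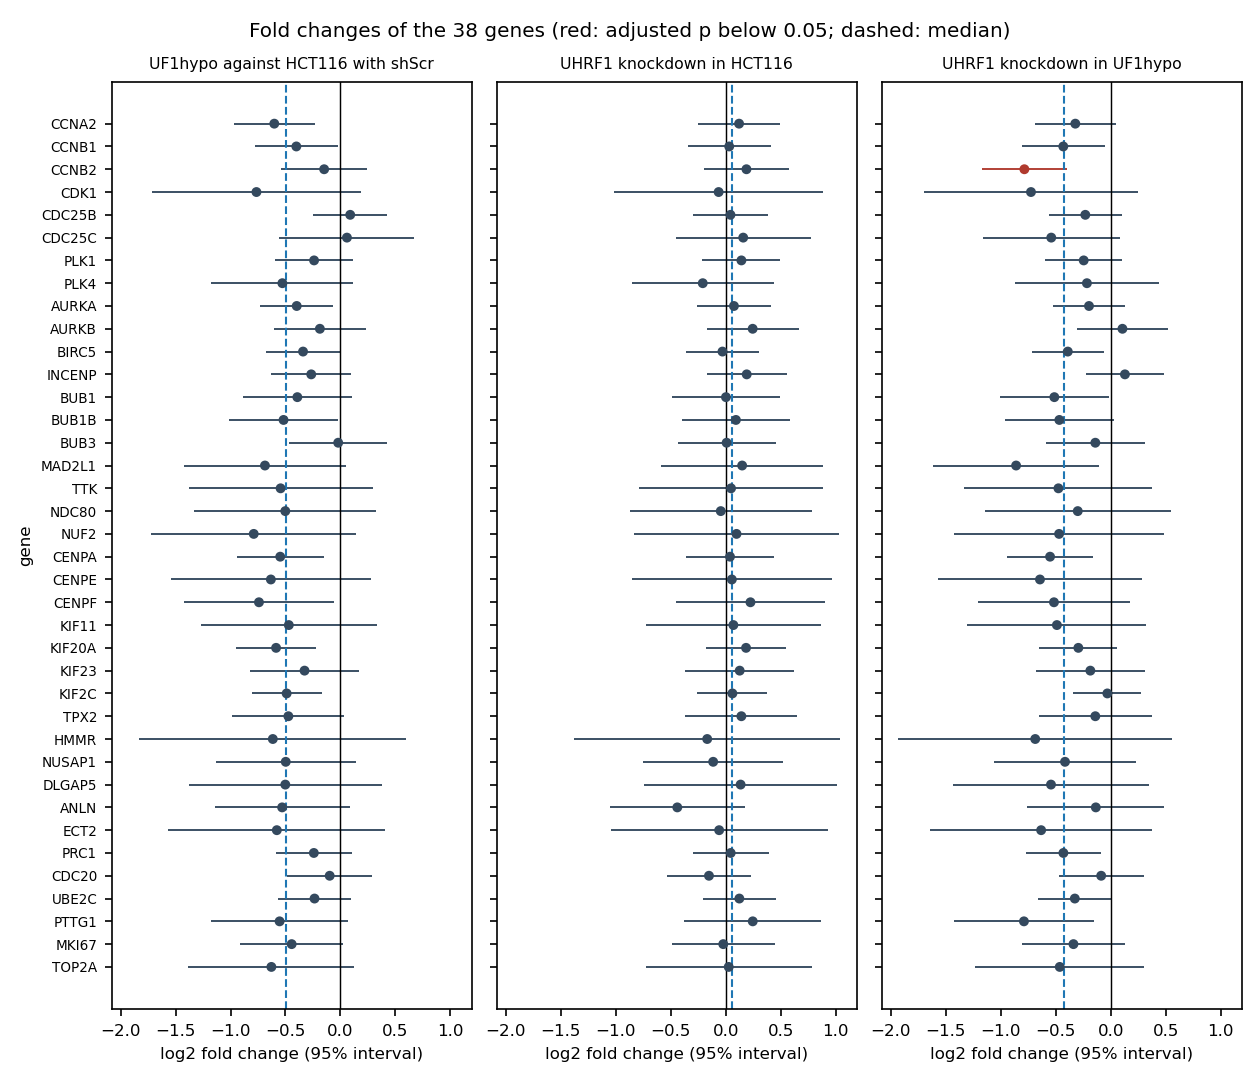
Log2 fold change (x axis, log2 units; points, with 95% intervals from limma as lines) of the 38 genes (y axis, by role) in 3 comparisons; the dashed line is the median of the 38. The medians are −0.49 for the clone against its parent, 0.06 for the knockdown in HCT116 and −0.42 for the knockdown in UF1hypo, and the single red point is CCNB2 in the last.

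How much of this rested on 1 library was measured directly. In replicate 1 of UF1hypo shUHRF1, 33 members lay below the lower shScr library and the median difference from the shScr mean was −0.70. In replicate 2 it was 20 members and −0.09. UHRF1 itself had a TPM of 34.1 in replicate 1 and 21.1 in replicate 2, so that the members were lower in the library with more UHRF1 RNA. A link between the 2 was not tested. The 30 members with a GC content below the median of all genes had medians of −0.93 in replicate 1 and 0.03 in replicate 2. The 8 members at or above it (CDC25B, PLK1, AURKB, BIRC5, INCENP, KIF2C, CDC20 and UBE2C) had −0.04 and −0.21. HMMR, a GC-poor spindle gene, shows the widest gap, from a TPM of 50.5 and 30.9 under shScr to 11.5 and 49.6. BUB3 ran the other way, with 232.4 and 256.2 against 272.7 and 179.4.

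Without replicate 1 of UF1hypo shUHRF1, 23 of 38 members were below 0 with a median of −0.09, and 3 passed an adjusted p of 0.05 (BUB3, CCNB2 and CDC25B, all lower), against 19.4% of all genes. CCNB2 kept −0.59 there, while MAD2L1 stood at −0.26, PTTG1 at −0.31, MKI67 at −0.08, CDK1 at 0.08 and HMMR at 0.32. Without replicate 2, the median was −0.70 and 29 members passed, all lower, against 47.6% of all genes, with −1.53 for CDK1 and −1.70 for HMMR. Corrected for GC content and length, the median was −0.32 with 36 members below 0. There 14 members passed, all lower, against 30.6% of all genes in either direction, so that the count is not far from the background. These were BIRC5, BUB1, BUB1B, CCNB1, CCNB2, CDC25B, CENPA, CENPF, KIF20A, MAD2L1, PLK1, PRC1, PTTG1 and UBE2C. In that version CCNB2 had a log2 fold change of −0.65 (SE 0.0795, limma, adjusted p = 6.61e-04), MAD2L1 −0.66 (adjusted p = 0.0035) and PTTG1 −0.59 (adjusted p = 0.0200). CDK1 had −0.45 (adjusted p = 0.0605), HMMR −0.46 (adjusted p = 0.252) and MKI67 −0.40 (adjusted p = 0.0688).

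**Figure D4:**
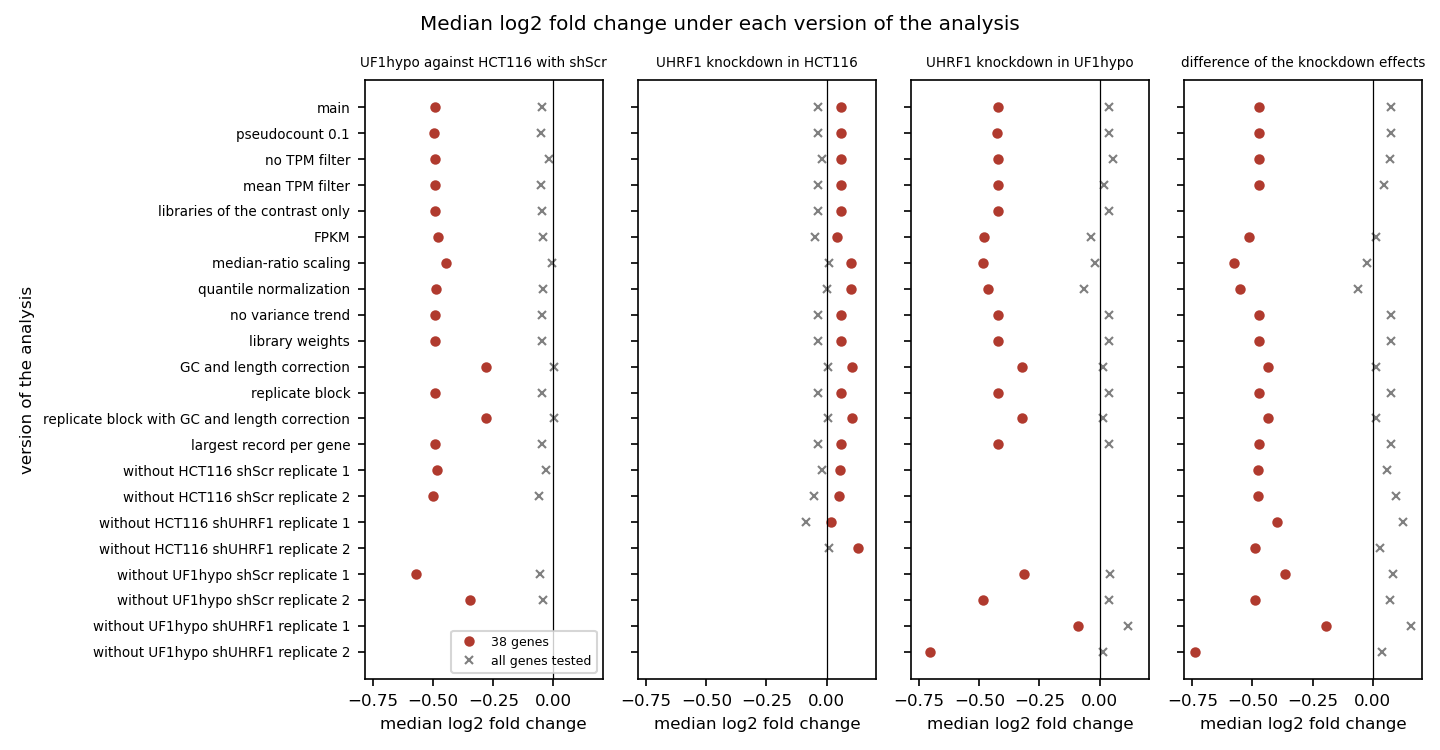
Median log2 fold change (x axis, log2 units) of the 38 genes (red circles) and of all genes tested (grey crosses) in 4 comparisons under each version of the analysis (y axis). In UF1hypo cells the red circles run from −0.70 to −0.09 when 1 library is left out, and in HCT116 they stay between 0.02 and 0.13.

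The last comparison tested whether the effect of the hairpin differed between the lines. The knockdown effect in UF1hypo was more negative than in HCT116 in 36 of 38 members, with a median difference of −0.47 against 0.08 over 13781 genes. No member had an adjusted p below 0.05 in limma, against 5.22% of all genes, or 5.09% with the fold threshold, and 3 had an unadjusted p below 0.05, all lower, where 4.6% of all genes were lower and 13.9% higher. CCNB2 came closest with a difference of −0.98 (SE 0.238, adjusted p = 0.0558). PTTG1 had −1.04 (SE 0.391, limma, adjusted p = 0.199) and MAD2L1 −1.01 (SE 0.464, adjusted p = 0.296). In HCT116 the TPM of MAD2L1 was 54.3 and 59.4 with shScr and 64.5 and 61.8 with shUHRF1. ANLN had 0.30 (SE 0.384) and CDC20 0.06 (SE 0.239), which turned to −0.04 under median-ratio scaling. ANLN had a TPM of 76.5 and 69.3 in UF1hypo under shScr, then 47.2 and 92.6 under shUHRF1, so that its UF1hypo groups overlapped. For CDC20 the HCT116 values of 561 and 553 stood against 527.5 and 476.2 with the hairpin, and the UF1hypo values of 493.3 and 548.5 against 573.4 and 417.7. Scaling by quantiles moved the median difference of all genes from 0.08 to −0.06, and that of the members to −0.55. Without replicate 1 of UF1hypo shUHRF1, 23 members were below 0 with a median of −0.19, and 2 passed (ANLN and CCNB2) against 11.7% of all genes. These 2 went in opposite directions, with a difference of 0.78 for ANLN and −0.78 for CCNB2. Without replicate 2 the median was −0.74 and 26 passed against 30.9%. In 9 members both HCT116 shUHRF1 libraries lay above and both UF1hypo shUHRF1 libraries below their shScr libraries, against 3.23% of all genes. With the GC correction 11 members passed, all with the more negative effect in UF1hypo, against 16% of all genes.

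Other genes of the pathway came from 3 further lists. Of 83 other mitotic genes, the median log2 fold change was −0.37 for the clone against its parent, with 75 below 0, and 1 passed, UBE2S, the elongating enzyme of the anaphase-promoting complex, which was lower by 0.72 on the log2 scale (limma, adjusted p = 0.0253) and lost the call without any 1 of the 4 shScr libraries. For the knockdown their median was 0.06 in HCT116 with 0 past an adjusted p of 0.05 and 2 at an unadjusted p below 0.05. In UF1hypo their median was −0.19, and at an unadjusted p below 0.05, 4 were lower and 7 higher, against 8.45% and 19% of all genes. Both shUHRF1 libraries lay below both shScr libraries in 14 of these genes and above both in 17, against 18.3% and 30.6%. At an adjusted p below 0.05, 1419 of all 13620 genes tested passed there with higher and 390 with lower values. Of the 83 genes, 0 passed with lower values and 2 with higher ones, a smaller share than over all genes. These were MAD1L1, the partner of MAD2L1 at unattached kinetochores, at 0.89 (TPM 28.5 and 37.5 against 77.2 and 49.0) and the condensin subunit NCAPH2 at 0.58. MAD1L1 passed in 8 and NCAPH2 in 9 of 17 alternatives, and both calls were lost without either UF1hypo shScr library, as MAD1L1 was without replicate 1 of UF1hypo shUHRF1. Of 45 S phase genes, 44 were below 0 in the clone with a median of −0.30, and the medians on knockdown were −0.02 in HCT116 and −0.13 in UF1hypo, with 0 past an adjusted p of 0.05 in any of the 3 comparisons. At an unadjusted p below 0.05, 11 were lower in the clone, 0 in the HCT116 knockdown, and 2 lower and 1 higher in the UF1hypo knockdown, beside the shares of all genes given above. The clone contrast shares the shScr libraries with both knockdown contrasts, so that values set side by side are not independent.

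Of 22 regulators of G2/M transcription, 18 were below 0 in the clone (median −0.30, 0 passing, 6 lower and 1 higher at an unadjusted p below 0.05). On knockdown their median was −0.02 in HCT116, with 0 passing, and −0.10 in UF1hypo, with 1 passing, beside the counts of all genes given above. FOXM1 had a TPM between 82.1 and 104.7 in all 8 libraries. MYBL2, which encodes B-MYB, lay between 159.0 and 174.8 in the 4 HCT116 libraries and between 107.4 and 133.6 in the 4 UF1hypo libraries. On knockdown in UF1hypo, LIN54, the MuvB subunit that contacts the CHR, rose by 0.95 on the log2 scale (limma, adjusted p = 0.0235), from a TPM of 10.5 and 9.32 to 17.1 and 23.4. It passed in 13 of 17 alternatives and not without either UF1hypo shScr library. CDKN1A, which encodes the CDK inhibitor p21, went from 285.3 and 306.6 to 519.5 and 484.7 with knockdown in HCT116, but from 426.5 and 455.1 to 357.3 and 283.3 in UF1hypo. Its knockdown effect was 0.76 in HCT116 (adjusted p = 0.143) and −0.47 in UF1hypo (adjusted p = 0.0762), and the difference of −1.23 passed the test (limma, adjusted p = 0.0148). That call held in 14 of 20 alternatives and was lost, with an adjusted p of up to 0.0988, without any 1 library of the HCT116 or UF1hypo shScr groups or of HCT116 shUHRF1.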

How the data were processed

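PolyA RNA of 8 libraries, 2 in each of 4 groups, was sequenced. The authors trimmed reads with Fastp and, per the submitters' processing notes, aligned them with HISAT2 (2.0.4) to GRCh38 and estimated gene abundances with StringTie (2.1.4). The deposited TPM values, which the authors' tool scales by transcript length and to a fixed total per library, were analysed here. The deposited FPKM values, scaled by length and fragments, served as an alternative. The deposited coverage, the mean read depth over a gene, was used with FPKM to recover the aligned bases per library. The annotation release is not given in the sources used here.

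Records with the same gene identifier were summed. Genes that GENCODE release 44 calls protein-coding were kept where TPM was above 1 in at least 1 library of the comparison, and log2(TPM + 1) was fitted in limma (3.58.1, R 4.3.3) over all 8 libraries with a variance trend, leaving 4 residual degrees of freedom. Benjamini-Hochberg adjustment ran over all genes tested, with a threshold of 0.05, and the fold rule added an absolute log2 change above 1. An exact permutation test of 2 against 2 libraries cannot give p below 0.33 and was not used. The files hold no counts, so count models were not run. The GC correction subtracted from each library the median deviation from the mean of all libraries in 10 bins of GC content of the canonical transcript, and then in 10 bins of its length.

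Values in every library are given for 8 markers. The members with the up to 3 largest changes each way in a comparison have values in the libraries of that comparison. Members called by fold and p were to be added, but the main fits called none. Genes of the other mitotic and regulator lists that passed are named with their log2 fold changes, and no S phase gene passed. For the cell type markers, levels are given without fold changes. The members and lists were chosen with earlier results of these data known. Scripts were tested on simulated data that had no trend with GC content and larger changes than the members showed. Promoters came from RefSeq (GRCh38.p14). Tables were handled in Python (3.11.15) with pandas (2.3.3) and numpy (2.4.6), and figures drawn with matplotlib (3.10.9). Alternatives covered the pseudocount (0.1), the filter, FPKM, scaling, the variance trend, library weights, the libraries fitted, the GC correction, a replicate block and each library left out. The study's methylation and reporter data were not analysed here. A regulator is not reported here and was left out of its list.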

Additional observations from a re-analysis of the deposited data

Results flagged for a closer look

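For 9 members both HCT116 shUHRF1 libraries lay above both of their shScr libraries, while both UF1hypo shUHRF1 libraries lay below both of theirs, a pattern that 3.23% of all genes showed. The knockdown effect in UF1hypo minus that in HCT116, on the log2 scale, was −0.44 for CCNA2, −0.46 for CCNB1, −0.98 for CCNB2, −0.39 for PLK1, −0.27 for AURKA, −1.01 for MAD2L1, −0.48 for KIF20A, −0.45 for UBE2C and −1.04 for PTTG1. In limma's test of the difference no member passed an adjusted p of 0.05 (smallest 0.0558, for CCNB2). At an unadjusted p below 0.05, 3 members were lower and 0 higher, against 4.6% and 13.9% of all genes. Outside the set, the regulator CDKN1A passed that test, with a difference of −1.23 (adjusted p = 0.0148), a call that held in 14 of 20 alternatives.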

How the results depend on the processing

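With 2 libraries a group and 4 residual degrees of freedom, small changes of single members were not detectable, and the reads behind a gene are unknown. Counts of members with an adjusted p below 0.05 depended on how the spread was estimated and on single UF1hypo shUHRF1 libraries, and the cause was not tested.

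For the clone against its parent the count of 0 became 25 with the 4 libraries compared, 27 with library weights, 1 with quantile normalization, 8 with the GC and length correction and 7 with the replicate block added to it. The median was −0.28 under both corrections and ran from −0.57 to −0.35 with a library left out. CDC25B turned to −0.070 under both corrections, and CDC25C ran from −0.034 to 0.15 with a library left out.

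For the knockdown in HCT116 the count of 0 became 1 (ANLN) with the 4 libraries compared, and the median ran from 0.020 to 0.13 with a library left out.

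For the knockdown in UF1hypo the count of 1 became 0 with the 4 libraries compared and with library weights, 2 with median-ratio scaling and with quantile normalization, 14 with the GC and length correction and 11 with the replicate block added to it. With a library left out it ran from 0 to 29, and the count by fold and p from 0 to 12. INCENP was −0.081 under both corrections and ran from −0.027 to 0.28 with a library left out, and AURKB from −0.12 to 0.33.

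For the difference between the lines the count of 0 became 1 with median-ratio scaling and with quantile normalization, as did the count by fold and p, 11 with the GC and length correction and 7 with the replicate block added to it. With a library left out it ran from 0 to 26, the count by fold and p from 0 to 14, and the median from −0.74 to −0.19. CDC20 was −0.043 with median-ratio scaling, −0.0013 with quantile normalization and −0.089 under both corrections, and ran from −0.16 to 0.29 with a library left out, as ANLN did from −0.18 to 0.78.

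Whether equal replicate numbers pair the samples is not stated. Same-numbered deviations correlated at 0.06 between the HCT116 groups and −0.44 between the UF1hypo groups. Replicate differences in the UF1hypo groups followed GC content in opposite directions, so that these correlations cannot settle the pairing. The replicate block alone left the members' counts at 0, 1, 0 and 0 (HCT116, UF1hypo, difference and clone), and 1402 in place of 1809 genes passed in UF1hypo. A crossed replicate block, chosen after seeing the data, gave 1 member and 1924 genes. Of the values for single genes, 635 kept their direction and side of the threshold under an alternative, 54 newly passed it, 69 lost it and 17 turned in direction.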
